A study of Mus musculus with 9 samples.

Results

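The genes described here are the fibroblast growth factor (FGF) ligands, their receptors and the regulators that FGF signalling switches on, in mouse embryonic fibroblasts (MEFs) driven toward muscle. They were taken by symbol: every protein-coding gene named Fgf or Fgfr with a number, Fgfrl1, the Sprouty genes Spry1 to Spry4, the Spred genes Spred1 to Spred3, Dusp6, Etv4 and Etv5. This gave 37 of the 35675 genes counted. They are 18 secreted ligands, 4 intracellular FGFs, 4 receptors with the receptor-like Fgfrl1, and 10 feedback or target genes. After a filter on low counts 30 of the 37 were tested, and 29 of these averaged at least 1 CPM in some group.

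Polyadenylated RNA was sequenced from 9 libraries of MEFs, all of the Dmdmdx genotype, which carries a premature stop codon in the dystrophin gene. In 3 libraries the MEFs had MyoD and F/R/C (here F/R/C), in 3 they had MyoD alone, and 3 were MEFs with no treatment. MyoD, encoded by Myod1, is a transcription factor able to turn fibroblasts onto the path of skeletal muscle. The study's title concerns myogenic progenitors made by direct reprogramming, and its design calls F/R/C small molecules without spelling out the letters. The promoter that drove MyoD, the duration, the medium and any growth factor added to it are not given in the sources used here, and neither is the age of the embryos. Nothing in the labels says whether libraries of a group were separate cultures, so each p-value reflects the spread among these libraries alone, which may be technical.

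FGFs bind tyrosine kinase receptors at the cell surface together with heparan sulphate chains. The receptor signals through adaptors to Ras and the kinase ERK, and ERK signalling in turn raises the ETS factors Etv4 and Etv5, the ERK phosphatase Dusp6 and the Sprouty and Spred inhibitors, which hold the pathway back. In cultured myoblasts FGF2 is known to favour proliferation and delay differentiation, and Fgfr4 and Fgf6 are known as genes of the developing and regenerating muscle lineage.

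In the F/R/C libraries the receptor gene Fgfr4, the ligand genes Fgf6, Fgf9 and Fgf21 and the intracellular Fgf11 were higher than in both MyoD and untreated MEFs, by 15 to 179 times. Fgf2 was lower by about 19 times, and the main fibroblast receptor gene Fgfr1 by about 2.4 times against MEF and 2.3 times against MyoD. Fgfr2, Fgf12, Fgf14 and Etv4 were also lower in both comparisons. Of the 10 feedback and target genes, Etv4 was the only member called against MEF, and Etv4, Spred2 and Spred3 were called against MyoD. The calls of Fgf12, of Etv4 against MEF, and of Fgfr2 and Spred2 against MyoD were lost when certain single libraries were left out. Among all genes tested, 37.6% were called against MEF and 33.9% against MyoD. With MyoD alone, no member and no other tested gene was called against MEF.

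A gene was called where its adjusted p was under 0.05 (edgeR quasi-likelihood test, 15714 genes, Benjamini-Hochberg). In F/R/C against MEF 12 of the 30 tested members were called, 5 higher and 7 lower, while 37.6% of all genes tested were called (19.5% higher and 18.1% lower). The members' median log2 fold change was -0.45, and that of all genes was -0.04. Against MyoD 13 were called, 5 higher and 8 lower, beside 33.9% of all genes (17.8% higher and 16.1% lower). The libraries of the groups did not overlap for 20 tested members against MEF and 19 against MyoD, where 53.2% and 49.8% of all genes tested did not overlap. The called shares lie near the background, so the counts of called members do not set the FGF genes apart from other genes. The shares of members that did not overlap were somewhat higher than those of all genes, which was not tested. The comparisons share the F/R/C libraries.

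The libraries held 21112071 to 24291056 estimated counts, and a count of 0 is compatible with up to 3 counts by counting error alone, or 0.113 to 0.144 CPM (counts scaled by effective library size). Myod1 had 269, 281 and 330 CPM in F/R/C, 7.21, 9.03 and 19.0 CPM in MyoD and 2.6, 0.403 and 6.0 CPM in MEF; introduced and endogenous Myod1 cannot be told apart in these counts. The gene was called where F/R/C was set against MEF (adjusted p = 0.00109), but MyoD against MEF was not called (adjusted p = 0.886). The 10 skeletal muscle markers summed to 29606 to 42471 CPM in F/R/C, 903 to 2898 CPM in MyoD, and 5.95, 4.39 and 478 CPM in MEF, where MEF replicate 3 stood apart. The 11 fibroblast markers summed to 5733 to 8799 CPM in F/R/C, 8495 to 34605 CPM in MyoD and 19634 to 81091 CPM in MEF. Fibroblast marker RNA was thus abundant in every MEF library, but the sums of MEF and MyoD, and of MyoD and F/R/C, overlapped. MyoD and MEF libraries were apart for 0 of the 11 markers. Col1a1, Col1a2 and Col3a1 made up most of each sum. Of the 11, 3 were called lower in F/R/C against MEF and 1 against MyoD, and 0 were called higher. The groups did not overlap for 5 of the 11 against MEF and 2 against MyoD, beside 53.2% and 49.8% of all genes. Thy1, Dcn and Twist2 were among the markers that overlapped between the groups. In bulk RNA, fewer cells of a type and less RNA per cell cannot be told apart.

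Among the receptors, Fgfr4 had the largest difference. Fgfr4 (chr13:55152640-55168759, + strand, GRCm38) had 101, 85.5 and 78.2 CPM in F/R/C, 0.179, 0.340 and 1.35 CPM in MyoD, and 0.186, 0.0805 and 2.08 CPM in MEF. The lowest F/R/C library lay far above the highest of the other 6, which was MEF replicate 3, the MEF library with the muscle markers. The log2 difference was 6.83 ± 1.13 (SE) against MEF (adjusted p = 0.00252) and 7.16 ± 1.15 against MyoD (adjusted p = 0.00297). With so few counts outside F/R/C its size varied: it was 9.29 against MEF without MEF replicate 3 and 6.22 without MEF replicate 2, and 8.35 against MyoD without MyoD replicate 3. With the replicate number as a block it was 7.58 against MEF.

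Fgfr1, the receptor with the most RNA in fibroblasts here, had 202, 228 and 144 CPM in F/R/C, 448, 393 and 481 CPM in MyoD, and 430, 522 and 436 CPM in MEF. All 3 F/R/C libraries lay below all 6 others. It fell by 1.27 ± 0.22 on the log2 scale against MEF (adjusted p = 0.00308) and by 1.2 ± 0.22 against MyoD (adjusted p = 0.00504). Fgfr2, whose isoforms divide between epithelial and mesenchymal ligands, had 11.6, 20.1 and 6.72 CPM in F/R/C, 40.6, 35.3 and 33.2 CPM in MyoD, and 39.3, 82.2 and 72.5 CPM in MEF. Again no F/R/C library reached the others. Fgfr2 fell by 2.34 ± 0.42 against MEF (adjusted p = 0.00337) and by 1.51 ± 0.41 against MyoD (adjusted p = 0.0214). The call against MyoD was lost without MyoD replicate 1 (-1.42, adjusted p = 0.0582), without F/R/C replicate 1 (-1.44, adjusted p = 0.0684) and without F/R/C replicate 3 (-1.2, adjusted p = 0.0529). Exons of Fgfr2 overlap those of Ctbp2 on the same strand by up to 210 bases, so some counts may be split between them.

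Fgfr3, a receptor known from cartilage, had 12.4, 14.2 and 13.6 CPM in F/R/C, 5.10, 17.6 and 4.28 CPM in MyoD, and 5.30, 22.5 and 1.52 CPM in MEF. Replicate 2 was the highest library of both the MyoD and the MEF group, and the groups overlapped (log2 0.45 ± 0.86 against MEF, adjusted p = 0.709). Fgfrl1, which encodes a receptor without a kinase domain, had 122, 177 and 203 CPM in F/R/C, 171, 178 and 104 CPM in MyoD, and 172, 270 and 148 CPM in MEF. Its groups overlapped too, with log2 differences of -0.23 ± 0.31 against MEF (adjusted p = 0.597) and 0.15 ± 0.31 against MyoD (adjusted p = 0.743).

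Set side by side in TPM, which is scaled for transcript length, Fgfr4 made up 29%, 20.3% and 31.3% of the summed level of the 4 receptor genes in F/R/C. Its share averaged 26.9% ± 5.82 in F/R/C, 0.111% ± 0.104 in MyoD and 0.147% ± 0.186 in MEF (SD, n = 3 each). Fgfr1 kept the largest share in every library, at 65.4% ± 5.27 in F/R/C, 90.1% ± 2.65 in MyoD and 86.2% ± 3.20 in MEF. The share of Fgfr2 was 3.83% ± 1.08 in F/R/C, 7.90% ± 1.30 in MyoD and 12.0% ± 2.88 in MEF. The receptor RNA of F/R/C was thus ordered Fgfr1, Fgfr4, and then Fgfr3 at 3.87% ± 0.600 and Fgfr2, which did not differ beyond their spread. In MyoD and MEF the order was Fgfr1, Fgfr2, Fgfr3 and Fgfr4, with the last pair in MyoD apart by less than the SD of Fgfr3 (1.88% ± 1.95).

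**Figure D1:**
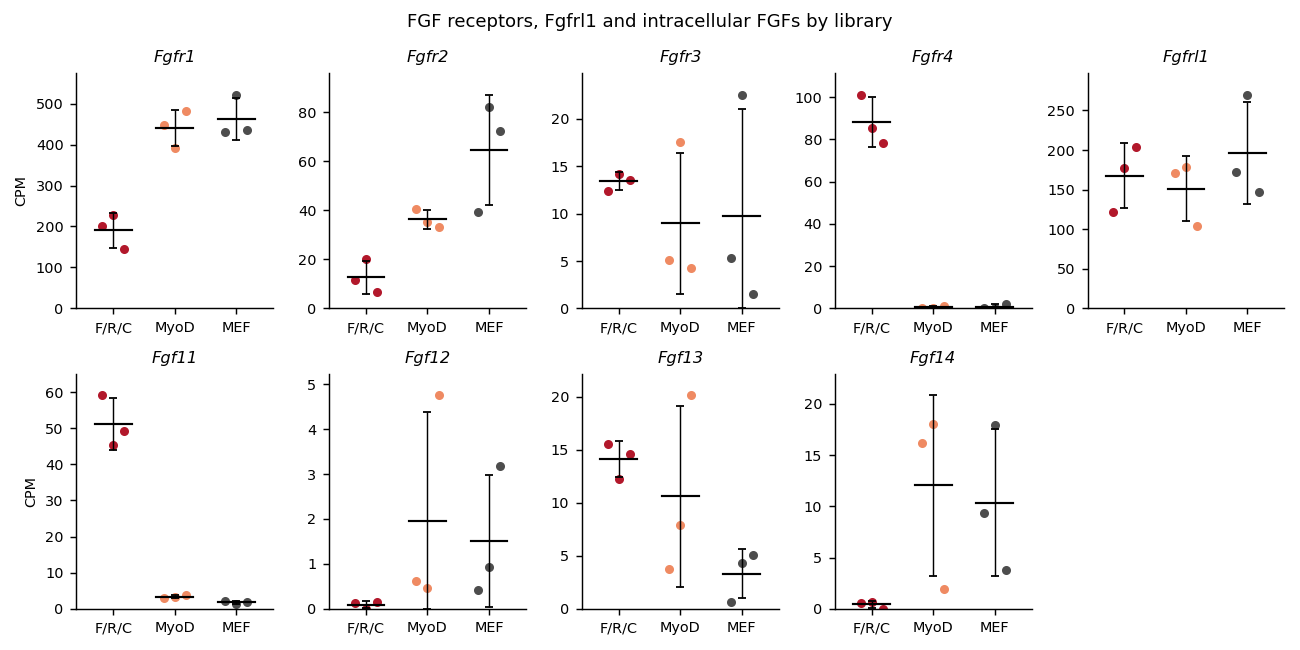
CPM of the 4 receptor genes, Fgfrl1 and the 4 intracellular FGFs in each library (points), with the mean (line) and SD (bars, ended at 0 where the SD exceeds the mean), for F/R/C, MyoD and MEF from left to right. Fgfr4 and Fgf11 are high in all 3 F/R/C libraries and near 0 in the others, and Fgfr1 and Fgfr2 are lower in all 3 F/R/C libraries.

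The transcripts of Fgfr1 differed in how far they fell. A transcript's values are kallisto's estimate of how reads shared between isoforms divide, and they carry that uncertainty. Among member transcripts 82 of 185 were tested. F/R/C against MEF gave 6 higher and 6 lower, beside 11.5% of all 44724 transcripts tested. Against MyoD 5 were called higher and 7 lower, beside 7.88%, and leaving out MyoD replicate 1 or MyoD replicate 2 gave 7 calls in all. No member transcript was called in MyoD against MEF, where 0.0112% of transcripts were.

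Fgfr1-203 is annotated without the 267-base exon at chr8:25555508-25555774 (+ strand, GRCm38) that Fgfr1-201 and Fgfr1-202 carry, and codes for 733 residues where those code for 822 and 820. It had 0.626, 4.87 and 2.12 TPM in F/R/C, 77.0, 45.0 and 84.9 TPM in MyoD, and 56.7, 87.1 and 69.1 TPM in MEF. No F/R/C library came near the other 6. It fell by 4.35 ± 0.72 on the log2 scale against MEF (adjusted p = 0.0091) and by 4.37 ± 0.73 against MyoD (adjusted p = 0.0126). Its share of all Fgfr1 TPM was 2.27% ± 1.63 in F/R/C, 23.5% ± 6.30 in MyoD and 22.9% ± 2.17 in MEF.

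Fgfr1-202, which holds that exon, had 40.4, 41.1 and 18.5 TPM in F/R/C, 49.4, 51.9 and 44.2 TPM in MyoD, and 51.6, 60.8 and 58.2 TPM in MEF. It was not called (log2 -0.39 ± 0.23 against MEF, adjusted p = 0.351), and its share was 27.0% ± 2.12 in F/R/C, 16.7% ± 2.16 in MyoD and 18.6% ± 1.75 in MEF. Fgfr1-201, which also holds it, fell by 1.67 ± 0.24 against MEF (adjusted p = 0.00543). Fgfr1-213 also lacks the exon and uses a 151-base exon at chr8:25563374-25563524 where the other three use the 145-base exon at chr8:25564340-25564484. It had 24.5, 31.6 and 20.6 TPM in F/R/C, 84.2, 77.3 and 76.2 TPM in MyoD, and 76.8, 94.4 and 64.9 TPM in MEF, and fell by 1.19 ± 0.21 against MEF (adjusted p = 0.0118). The share of Fgfr1-213 was 22.7% ± 8.88 in F/R/C, 27.2% ± 2.08 in MyoD and 25.5% ± 2.53 in MEF. The transcripts also differ at chr8:25557731, where Fgfr1-201 and Fgfr1-203 hold a 90-base exon and Fgfr1-202 and Fgfr1-213 an 84-base form. The difference between the transcripts' falls was not tested.

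Among the secreted ligands, 11 of 18 were tested, and 3 were higher and 2 lower in F/R/C against MEF. Fgf6 (chr6:127015586-127028187, + strand), a ligand gene known from the muscle lineage, had 57.2, 61.8 and 45.9 CPM in F/R/C, 1.43, 0.642 and 1.64 CPM in MyoD, and 0.279, 0 and 0.646 CPM in MEF. Behind the MEF values stood 6, 0 and 14 counts, against 956 to 1363 counts in F/R/C. The log2 difference was 7.48 ± 0.88 against MEF (adjusted p = 0.000657) and 5.48 ± 0.78 against MyoD (adjusted p = 0.00192). Against MEF it was 6.82 without MEF replicate 2, the library at 0, and 8.59 without MEF replicate 3.

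Fgf9, a ligand of the mesenchymal receptor forms, had 14.4, 18.2 and 13.9 CPM in F/R/C, 0.537, 0.453 and 1.59 CPM in MyoD, and 0.0465, 0.282 and 0.461 CPM in MEF. All F/R/C libraries lay above all MyoD and MEF libraries. The log2 difference was 5.85 ± 0.77 against MEF (adjusted p = 0.000991) and 4.17 ± 0.70 against MyoD (adjusted p = 0.00339, or 4.95 without MyoD replicate 3). Fgf21, an endocrine FGF that stressed muscle and liver can release, had 4.66, 9.07 and 8.64 CPM in F/R/C, 0.269, 0 and 0.0962 CPM in MyoD, and 0.698, 0 and 0.323 CPM in MEF. It rose by 4.45 ± 1.15 against MEF (adjusted p = 0.0158) and by 5.91 ± 1.27 against MyoD (adjusted p = 0.0089). Its size rested on few counts in the comparison groups: it was 3.80 without MEF replicate 2 and 5.47 without MEF replicate 1 against MEF, and 5.28 without MyoD replicate 2 and 7.23 without MyoD replicate 1 against MyoD.

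Fgf2 (chr3:37348346-37410108, + strand), the basic FGF, moved the other way. It had 13.6, 28.6 and 3.79 CPM in F/R/C, 251, 293 and 313 CPM in MyoD, and 194, 383 and 290 CPM in MEF. The highest F/R/C library was well below the lowest of the other 6. It fell by 4.24 ± 0.66 on the log2 scale against MEF (adjusted p = 0.00194) and by 4.22 ± 0.66 against MyoD (adjusted p = 0.00261). Without F/R/C replicate 2 the values were -5.06 and -5.04. Exons of Fgf2 overlap those of Nudt6 on the opposite strand by up to 585 bases and of the same-strand gene Gm43439 by up to 255 bases; whether the counting used strand is not given in the sources used here, so the split between these genes is uncertain.

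Fgf18, a ligand known from bone and cartilage, was near the floor in F/R/C at 0.168, 0.228 and 0.144 CPM, against 1.75, 0.302 and 0.962 CPM in MyoD and 4.60, 0.805 and 0.461 CPM in MEF. It fell by 3.40 ± 1.02 against MEF (adjusted p = 0.029) and was not called against MyoD (-2.44 ± 1.01, adjusted p = 0.0918). MEF replicate 1 was far above the other MEF libraries, and without it the value was -1.84 (adjusted p = 0.11); the call was also lost without F/R/C replicates 1, 2 or 3 (-3.35, -3.60 and -3.27; adjusted p = 0.0857, 0.073 and 0.0958). Against MyoD Fgf18 passed without MEF replicate 1 (-2.51, adjusted p = 0.0329).

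Fgf7 and Fgf10, mesenchymal ligands that act on epithelial Fgfr2, each had their highest level in MEF replicate 3. Fgf7 had 28.5, 86.6 and 19.9 CPM in F/R/C, 97.4, 89.8 and 145 CPM in MyoD, and 75.4, 103 and 361 CPM in MEF. F/R/C replicate 2 overlapped the MEF range, and the log2 difference was -2.0 ± 0.71 against MEF (adjusted p = 0.0526). It passed without F/R/C replicate 2 (-2.90, adjusted p = 0.0219), without MEF replicate 1 (-2.42, adjusted p = 0.0335) and with DESeq2 (adjusted p = 0.0166). Fgf10 had 13.8, 22.4 and 13.9 CPM in F/R/C, 12.9, 50.4 and 91.9 CPM in MyoD, and 11.4, 69.8 and 338 CPM in MEF. Replicate 3 was the highest and replicate 1 the lowest library in both MyoD and MEF, while the F/R/C libraries lay close together. The difference against MEF was -3.06 ± 1.1 (adjusted p = 0.056); it passed without MEF replicate 1 (-3.67, adjusted p = 0.0155), without MyoD replicate 1 (-3.07, adjusted p = 0.0481) and with DESeq2 (adjusted p = 0.00608).

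Fgf1, a ligand of every FGF receptor, had 20.2, 25.1 and 21.8 CPM in F/R/C, 1.75, 1.81 and 27.5 CPM in MyoD, and 1.26, 2.25 and 13.5 CPM in MEF. Replicate 3 of MyoD and of MEF stood far above replicates 1 and 2 of the same group. Fgf1 was not called (1.98 ± 1.18 against MEF, adjusted p = 0.216; 1.11 ± 1.15 against MyoD, adjusted p = 0.482). With the replicate number as a block it passed against MEF (3.09, adjusted p = 0.0194). It passed against MyoD without MyoD replicate 3 (3.64, adjusted p = 0.0254). Without the high libraries MEF replicate 3 and MyoD replicate 3 together, it passed against MEF (3.71, adjusted p = 0.00026) and against MyoD (3.65, adjusted p = 0.00038). Fgf5, known for its part in the hair cycle, had 5.33, 3.33 and 4.95 CPM in F/R/C, 0.179, 0 and 1.78 CPM in MyoD, and 1.07, 0 and 0.646 CPM in MEF. The F/R/C libraries were above all others, yet Fgf5 was not called (2.99 ± 1.45 against MEF, adjusted p = 0.135; 2.81 ± 1.44 against MyoD, adjusted p = 0.161). Without MyoD replicate 3 it passed against MyoD (5.64, adjusted p = 0.0295).

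Fgf23, an endocrine FGF of bone, was carried by a single library: F/R/C replicate 2 had 704 counts (32.1 CPM), against 21 and 11 counts in F/R/C replicates 1 and 3, 0, 24 and 0 counts in MyoD and 1, 22 and 11 counts in MEF. It was not called (adjusted p = 0.0976 against MEF and 0.0785 against MyoD). Fgf16 was tested but stayed under 1 CPM on average, with 4 to 7 counts a library in F/R/C, 2 to 26 in MyoD and 12 to 23 in MEF, and was not called. The 7 members that were not tested were all secreted ligands. Fgf15 and Fgf20 had 0 counts in all 9 libraries, and Fgf3, Fgf4, Fgf8, Fgf17 and Fgf22 had 0 to 13 counts in any library.

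In TPM the make-up of the ligand RNA changed with these genes. Fgf2 made up 4.76% ± 2.66 of the summed TPM of the 18 ligand genes in F/R/C, 42.6% ± 6.61 in MyoD and 39.5% ± 16.8 in MEF. Fgf6 took 17.2% ± 5.69 in F/R/C, 0.195% ± 0.0827 in MyoD and 0.0332% ± 0.0305 in MEF. Fgf21 and Fgf9 took 14.6% ± 7.84 and 10.5% ± 2.88 in F/R/C, and each was under 1% in every MyoD and MEF library. Fgf7 held 28.0% ± 9.95 in F/R/C, 44.8% ± 2.6 in MyoD and 44.6% ± 9.95 in MEF, ranges that overlap between F/R/C and MEF.

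**Figure D2:**
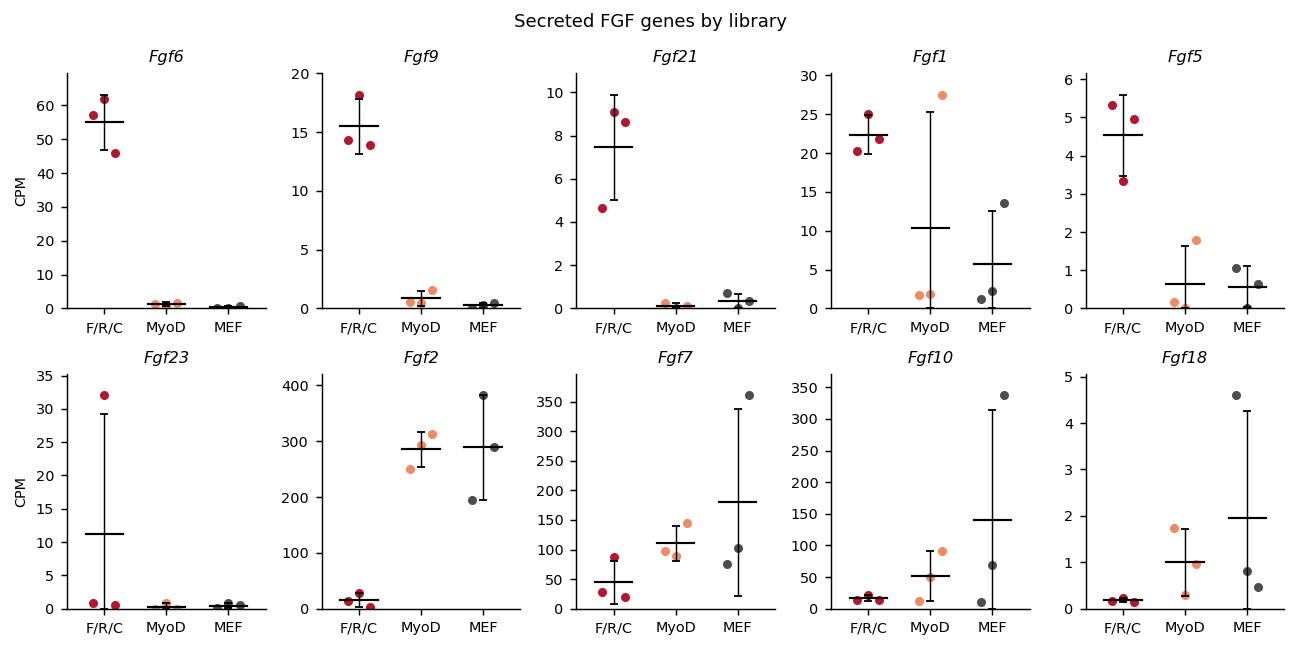
CPM of the 10 secreted FGF genes that averaged at least 1 CPM in some group, in each library (points), with the mean (line) and SD (bars, ended at 0 where the SD exceeds the mean). Fgf6, Fgf9 and Fgf21 are high in all 3 F/R/C libraries, Fgf2 is low in all 3, Fgf23 rests on a single F/R/C library, Fgf1 is highest in MyoD replicate 3, and Fgf7 and Fgf10 are highest in MEF replicate 3.

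**Figure D3:**
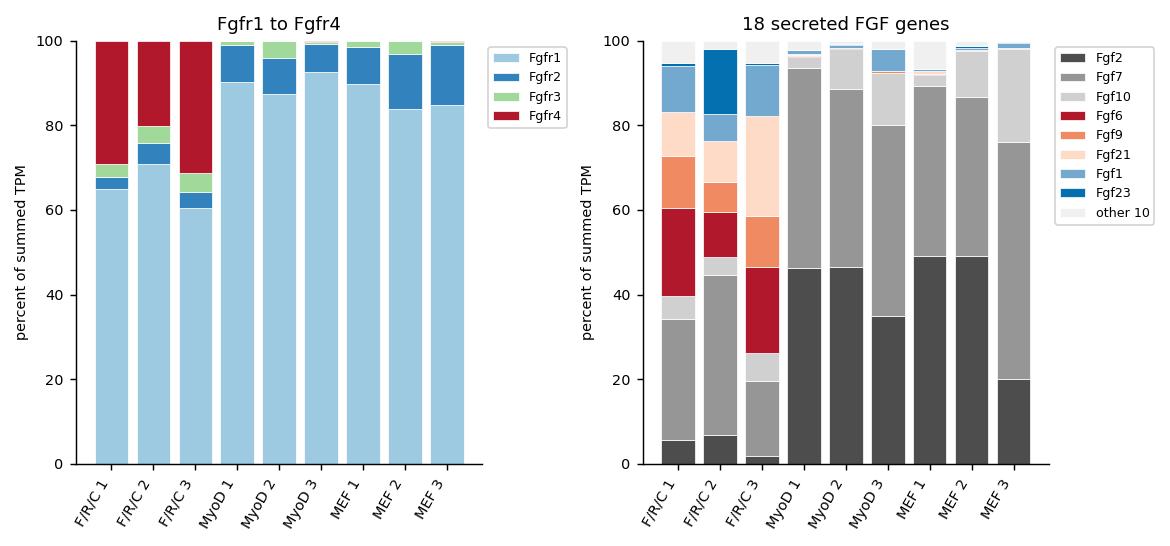
Share of each gene in the summed TPM of Fgfr1 to Fgfr4 (left) and of the 18 secreted FGF genes (right), in percent, for each library with F/R/C first, then MyoD and MEF. Fgfr4 takes 20.3% to 31.3% of receptor TPM in the F/R/C libraries and under 1% elsewhere, and Fgf2 shrinks to 1.77% to 6.84% of ligand TPM in F/R/C.

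The 4 intracellular FGFs are not secreted and are known as partners of voltage-gated sodium channels. Fgf11 (chr11:69796068-69801857, - strand) had 59.2, 45.2 and 49.3 CPM in F/R/C, 3.09, 3.17 and 3.75 CPM in MyoD, and 2.19, 1.25 and 1.85 CPM in MEF. The 3 groups did not overlap at all. The rise was 4.86 ± 0.28 on the log2 scale against MEF (adjusted p = 0.000177) and 3.94 ± 0.27 against MyoD (adjusted p = 0.000286), the smallest adjusted p among the members in both comparisons. In MyoD against MEF, Fgf11 was the only tested member whose libraries did not overlap (7.52% of all genes tested did not), with a log2 difference of 0.92 ± 0.25 that was not called (adjusted p = 0.528).

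Fgf12 had 0.126, 0 and 0.144 CPM in F/R/C, 0.627, 0.453 and 4.76 CPM in MyoD, and 0.419, 0.926 and 3.18 CPM in MEF. The F/R/C values stand for 3, 0 and 3 counts. It fell by 3.99 ± 1.33 against MEF (adjusted p = 0.0432) and by 4.35 ± 1.34 against MyoD (adjusted p = 0.0352), and the calls rested on single libraries. Against MEF the call was lost without MEF replicate 2 (-4.30, adjusted p = 0.0601) or 3 (-2.88, adjusted p = 0.118) and without F/R/C replicates 1, 2 or 3 (-4.31, -3.44 and -4.44; adjusted p = 0.0989, 0.112 and 0.0988). Against MyoD it was lost without MyoD replicate 3 (-2.52, adjusted p = 0.118) and without F/R/C replicates 1, 2 or 3 (-4.67, -3.80 and -4.80; adjusted p = 0.0863, 0.0953 and 0.0888). With counts scaled from TPM both calls were lost as well (adjusted p = 0.136 and 0.106).

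Fgf14 had 0.588, 0.684 and 0 CPM in F/R/C, 16.2, 18.1 and 1.92 CPM in MyoD, and 9.40, 18 and 3.74 CPM in MEF. Replicate 3 was the lowest library of each group, and no F/R/C library reached the others. Fgf14 fell by 4.58 ± 1.19 against MEF (adjusted p = 0.0164, and -3.98 without MEF replicate 2) and by 4.80 ± 1.2 against MyoD (adjusted p = 0.0161). Fgf13 had 15.6, 12.3 and 14.6 CPM in F/R/C, 3.76, 7.93 and 20.2 CPM in MyoD, and 0.651, 4.27 and 5.03 CPM in MEF. All F/R/C libraries were above MEF but not above MyoD replicate 3, and Fgf13 was not called (2.09 ± 0.76 against MEF, adjusted p = 0.0593; 0.41 ± 0.73 against MyoD, adjusted p = 0.69). Against MEF it passed with the replicate number as a block (2.50, adjusted p = 0.0195), with DESeq2 (2.11, adjusted p = 0.016), and without MyoD replicate 1 or 3 (both 2.08; adjusted p = 0.0459 and 0.0363).

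The stretches before the RefSeq starts of Fgfr4, Fgf6 and Fgf11 are shown because these 3 genes, a receptor, a secreted and an intracellular FGF, had the largest or most even rises. RefSeq promoters (GRCm38.p6, 250 bases before to 50 after the start) were matched for 27 of the 37 members, 35 promoters in all. The bases printed run from 250 bases before the start up to the start or to the first annotated exon base, which cuts Fgfr4 to 72 bases, 5′ to 3′ on the gene's strand, with the searched motifs in capitals.
Fgfr4, chr13:55152568-55152639, + strand: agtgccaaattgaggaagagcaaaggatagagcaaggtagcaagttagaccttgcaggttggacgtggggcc
Fgf6, chr6:127015292-127015541, + strand: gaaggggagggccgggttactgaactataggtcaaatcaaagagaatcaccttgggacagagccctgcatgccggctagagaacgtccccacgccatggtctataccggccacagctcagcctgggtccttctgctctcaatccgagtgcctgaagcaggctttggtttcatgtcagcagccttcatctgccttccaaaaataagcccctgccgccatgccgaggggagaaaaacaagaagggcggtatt
Fgf11, chr11:69802281-69802530, - strand: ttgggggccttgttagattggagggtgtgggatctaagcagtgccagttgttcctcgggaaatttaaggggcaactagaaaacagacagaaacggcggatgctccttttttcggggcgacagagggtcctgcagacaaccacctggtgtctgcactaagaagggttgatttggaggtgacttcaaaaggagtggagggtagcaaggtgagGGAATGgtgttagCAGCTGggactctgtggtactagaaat

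Each of 4 motifs was searched on both strands of the 250 bases before each start, with none overlapping another in the lines above. CAGCTG, an E-box bound by myogenic factors, is its own reverse complement and lies in the Fgf11 window, as it does in 13.0% of all 32851 promoters and 6 of the 35 member promoters. CATTCC, the M-CAT site of TEAD factors, lies there on the other strand, and is in 12.6% of all promoters and 4 of the members'. The ETS motif CCGGAAGT is in 2.88% of all and 1 of the members' (Fgfrl1), and the cAMP response element TGACGTCA is in 1.55% of all and 0 of the members'. The Fgfr4 and Fgf6 windows hold none of these motifs, and neither do those of Fgf9 and Fgf21, which are not printed. The Fgf6 and Fgf11 windows end upstream of the genes as annotated for counting, which start at chr6:127015586 and chr11:69801857. A match in such a window is a description only.

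The feedback and target genes read out ERK activity in many cells, and most were not called. Etv4, an ETS factor, had 11.9, 12.6 and 9.70 CPM in F/R/C, 45.2, 32.3 and 27.9 CPM in MyoD, and 34.0, 18.3 and 16.1 CPM in MEF. The F/R/C libraries were the 3 lowest. Etv4 fell by 1.62 ± 0.32 against MyoD (adjusted p = 0.00686) and by 1.00 ± 0.32 against MEF (adjusted p = 0.0373). The call against MEF was lost without MEF replicate 1 (-0.65, adjusted p = 0.0986), without MyoD replicate 2 (-0.96, adjusted p = 0.0551), without F/R/C replicates 1, 2 or 3 (-1.03, -1.08 and -0.90; adjusted p = 0.0833, 0.0714 and 0.112) and in a fit of these 2 groups alone (adjusted p = 0.0544). Etv5, its close relative, had 92.3, 115 and 71.0 CPM in F/R/C, 163, 272 and 119 CPM in MyoD, and 77.1, 261 and 102 CPM in MEF. Its F/R/C libraries lay below all MyoD libraries but overlapped MEF, and it was not called (-0.99 ± 0.48 against MyoD, adjusted p = 0.142); without MEF replicate 2 it passed against MyoD (-1.07, adjusted p = 0.0465).

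The Spred genes encode membrane-bound inhibitors of Ras. Spred3 had 22.1, 12.0 and 12.1 CPM in F/R/C, 27.2, 61.1 and 63.7 CPM in MyoD, and 23.1, 28.2 and 38.4 CPM in MEF. It fell by 1.72 ± 0.39 against MyoD (adjusted p = 0.0112) and stood at -0.95 ± 0.38 against MEF (adjusted p = 0.0807), where it passed without MyoD replicate 1 (-0.96, adjusted p = 0.0397) or F/R/C replicate 1 (-1.31, adjusted p = 0.0446). Its exons overlap Ggn on the opposite strand by up to 202 bases. Spred2 had 44.2, 47.7 and 23.0 CPM in F/R/C, 66.5, 77.0 and 70.2 CPM in MyoD, and 51.3, 70.2 and 68.2 CPM in MEF, so that the F/R/C libraries were again the 3 lowest. It fell by 0.90 ± 0.27 against MyoD (adjusted p = 0.0337) and stood at -0.72 ± 0.27 against MEF (adjusted p = 0.0649). The call was lost without MyoD replicates 1, 2 or 3 (-0.95, -0.87 and -0.91; adjusted p = 0.0646, 0.086 and 0.0561) and without F/R/C replicate 1 (-1.01, adjusted p = 0.0544).

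Spred1 had 75.5, 86.1 and 49.6 CPM in F/R/C, 116, 103 and 304 CPM in MyoD, and 109, 122 and 227 CPM in MEF. All F/R/C libraries lay below all MyoD and MEF libraries. Replicate 3 of MyoD and of MEF stood high, and Spred1 was not called (-1.12 ± 0.47 against MEF, adjusted p = 0.0897, and -1.31 ± 0.47 against MyoD, adjusted p = 0.0598). It passed against MEF without MyoD replicate 3 (-1.13, adjusted p = 0.0268), and against MyoD without MEF replicate 3 (-1.38, adjusted p = 0.0369) or MyoD replicate 2 (-1.61, adjusted p = 0.0497) and with DESeq2 (adjusted p = 0.034).

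No Sprouty gene and not Dusp6 was called in any comparison with all 9 libraries. Spry1 had 65.9, 66.1 and 65.4 CPM in F/R/C, 34.6, 54.3 and 23.2 CPM in MyoD, and 14.3, 36.8 and 54.4 CPM in MEF. The F/R/C values were even and above every other library, with log2 differences of 0.90 ± 0.46 against MEF (adjusted p = 0.149) and 0.82 ± 0.45 against MyoD (adjusted p = 0.194). Without MEF replicate 3 and MyoD replicate 3 together, Spry1 passed against MEF (1.41, adjusted p = 0.0254). Dusp6, the phosphatase that switches ERK off, had 92.3, 147 and 80.3 CPM in F/R/C, 51.9, 136 and 143 CPM in MyoD, and 24.0, 79.7 and 100 CPM in MEF. Its groups overlapped (0.65 ± 0.54 against MEF, adjusted p = 0.375; -0.05 ± 0.54 against MyoD, adjusted p = 0.953). Replicate 1 was its lowest library in MyoD and in MEF.

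Spry2 had 84.1, 111 and 64.0 CPM in F/R/C, 114, 132 and 78.1 CPM in MyoD, and 70.2, 129 and 166 CPM in MEF. Spry4 had 86.2, 180 and 58.9 CPM in F/R/C, 64.1, 147 and 218 CPM in MyoD, and 36.0, 111 and 99.7 CPM in MEF. Both overlapped between all 3 groups. Spry3, the least abundant Sprouty gene here, had 2.01, 2.32 and 1.1 CPM in F/R/C, 2.10, 1.47 and 5.53 CPM in MyoD, and 1.16, 1.21 and 4.89 CPM in MEF, where replicate 3 of MyoD and MEF again stood high. These uncalled genes are not shown to be equal between groups: SEs of 0.27 to 0.72 on the log2 scale over the 10 feedback and target genes leave room for differences that 3 libraries a group could not show.

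**Figure D4:**
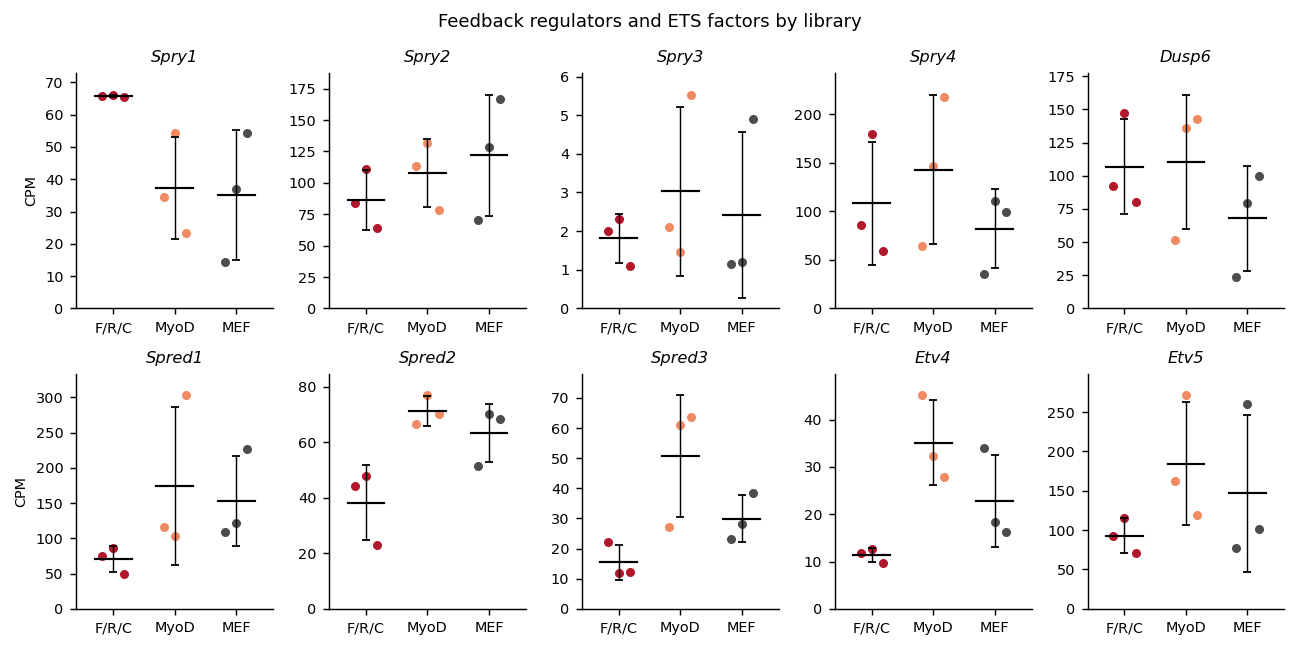
CPM of the 4 Sprouty genes, Dusp6, the 3 Spred genes, Etv4 and Etv5 in each library (points), with the mean (line) and SD (bars, ended at 0 where the SD exceeds the mean), for F/R/C, MyoD and MEF from left to right. Etv4, Spred1, Spred2 and Spred3 are lowest in the F/R/C libraries, while Dusp6, Spry2, Spry3 and Spry4 overlap between the groups.

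**Figure D5:**
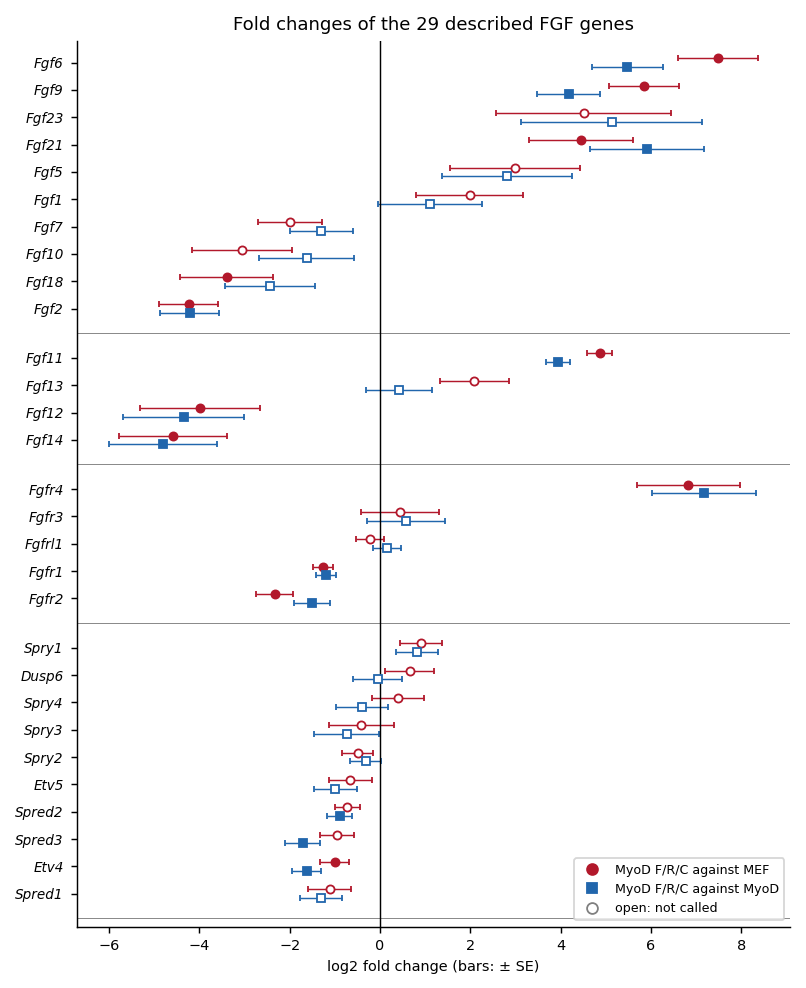
Log2 fold change ± SE of the 29 described genes in F/R/C against MEF (circles) and F/R/C against MyoD (squares), grouped from the top as secreted FGFs, intracellular FGFs, receptors, and feedback and ETS genes; filled symbols were called. Fgf6, Fgf9, Fgf21, Fgf11 and Fgfr4 lie to the right, Fgf2, Fgf12 and Fgf14 far to the left, while Etv4 and the Spred genes lie to the left and Spry1, which was not called, to the right in both comparisons.

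With MyoD alone against MEF, 0 of the 30 tested members were called, as 0% of all genes tested were (edgeR); at an unadjusted p under 0.05 there were 3 members, Fgf6, Fgf9 and Fgf11, and 732 genes in all. DESeq2 called 0 members and 163 genes. Across all genes the count was 13 with the replicate number as a block and 161 without MEF replicate 3. Compared within same-numbered libraries, which deviated together in these groups, 11 of the 30 tested members were higher in MyoD in 3 of 3 pairs (Fgf6, Fgf9, Fgf11, Fgf13, Spry3, Spry4, Spred2, Spred3, Dusp6, Etv4 and Etv5), where 17.4% of all genes tested were. Fgfrl1 alone was lower in 3 of 3 pairs, where 19.4% of all genes were. The replicate block called 0 members. Log2 differences of the members ran between -1.46 (Fgf21) and 2.01 (Fgf6). Fgf6 averaged 1.24 ± 0.525 CPM in MyoD and 0.308 ± 0.324 CPM in MEF (SD, n = 3 each), and Fgf9 averaged 0.859 ± 0.632 CPM in MyoD and 0.263 ± 0.208 CPM in MEF.

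Around the members, 75 further genes of the pathway were listed, of which 73 were tested. Of these, 33 were called in F/R/C against MEF and 30 against MyoD, beside the 37.6% and 33.9% of all genes. Co-receptors and heparan sulphate genes, which shape how ligands reach the receptors, held 26 tested genes. Against MEF 3 were higher and 15 lower, against MyoD 3 and 13, and their median log2 fold changes were -1.11 and -0.88, beside -0.04 and -0.02 for all genes. Sulf2, an enzyme that removes sulphate groups from heparan sulphate outside the cell, had 79.1, 45.0 and 37.6 CPM in F/R/C, 996, 517 and 547 CPM in MyoD, and 1060, 680 and 518 CPM in MEF. It fell by 3.80 ± 0.45 against MEF (adjusted p = 0.000666) and by 3.67 ± 0.45 against MyoD (adjusted p = 0.00115).

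Ext2, a subunit of the enzyme that builds the heparan sulphate chain, averaged 81.3 ± 3.03 CPM in F/R/C, 174 ± 24.2 CPM in MyoD and 197 ± 10.6 CPM in MEF (SD, n = 3 each), and fell by 1.27 ± 0.16 against MEF (adjusted p = 0.000876). Hs6st2, a sulphotransferase for the same chains, fell by 1.39 ± 0.20 against MEF (adjusted p = 0.00142), and Ndst2, another, by 1.36 ± 0.21 against MyoD (adjusted p = 0.00253). Ncam1, an adhesion molecule that can bind FGF receptors, averaged 528 ± 100 CPM in F/R/C, 68.8 ± 40.0 CPM in MyoD and 55.8 ± 18.8 CPM in MEF, and rose by 3.24 ± 0.45 against MEF (adjusted p = 0.00119). Klb, the co-receptor through which FGF21 signals, had under 1 CPM in every library and was not called; it is named because of Fgf21, outside the rule for named genes.

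Of 25 tested adaptors and Ras-ERK relay genes, 6 were higher and 5 lower against MEF and 5 in each direction against MyoD. Ksr1, a scaffold of the ERK cascade, averaged 108 ± 10.6 CPM in F/R/C, 20.2 ± 5.55 CPM in MyoD and 19.5 ± 3.13 CPM in MEF, a rise of 2.47 ± 0.25 against MEF (adjusted p = 0.000395). Nras (1.5 ± 0.15, adjusted p = 0.000437) and the ERK kinase gene Map2k1 (1.67 ± 0.30, adjusted p = 0.00335) also rose against MEF. Rasa1, which turns Ras off, fell by 1.76 ± 0.32 against MEF (adjusted p = 0.0038), and the adaptor Shc1 by 1.27 ± 0.20 against MyoD (adjusted p = 0.00261). The calls in this list thus went in both directions.

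Of 22 other ERK target and feedback genes, 1 was higher and 3 lower in each comparison, below the background share. Ccnd1, the G1 cyclin, averaged 93.0 ± 26.4 CPM in F/R/C, 1150 ± 926 CPM in MyoD and 663 ± 173 CPM in MEF, and fell by 2.83 ± 0.55 against MEF (adjusted p = 0.00479). Dusp7, another ERK phosphatase, fell by 1.36 ± 0.35 (adjusted p = 0.0159) and the ephrin receptor gene Epha2 by 2.44 ± 0.65 (adjusted p = 0.0182), while the early-response factor Egr2 rose by 2.19 ± 0.72 (adjusted p = 0.0414), all against MEF. No gene of these 3 lists was called in MyoD against MEF by edgeR.

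Summed over their lists, the 7 macrophage markers came to 10.5 to 24.5 CPM in F/R/C, 9.71 to 31.4 CPM in MyoD and 6.40 to 21.8 CPM in MEF, with Ptprc at 0 to 5 counts in any library. The 6 endothelial markers came to 8.21 to 13.5 CPM in F/R/C, 1.57 to 2.89 CPM in MyoD and 2.42 to 3.02 CPM in MEF, most of it Vwf in F/R/C. The 6 epithelial markers came to 3.40 to 5.33 CPM in F/R/C, 0 to 7.65 CPM in MyoD and 0.140 to 1.66 CPM in MEF, with Krt14 and Krt5 at 0 in all 9 libraries. Neural and glial markers came to 26.7 to 51.6 CPM in F/R/C, 32.6 to 72.0 CPM in MyoD and 25.5 to 61.5 CPM in MEF, with Olig2 and Rbfox3 at 0, and cartilage and bone markers to 22.8 to 37.7 CPM in F/R/C, 52.4 to 90.3 CPM in MyoD and 49.8 to 139 CPM in MEF. Satellite cell and progenitor markers came to 1462 to 1668 CPM in F/R/C, 369 to 543 CPM in MyoD and 369 to 601 CPM in MEF. Of the 7 tested in that list, 4 were called higher in F/R/C (Pax7, Myf5, Cdh15 and Itga7) and 2 lower (Eya1 and Vcam1) against MEF, and 3 higher and 2 lower against MyoD. Among the other lists, in F/R/C against MEF, 2 of 3 tested epithelial markers and 2 of 5 macrophage markers were called higher, 1 of 3 endothelial markers in each direction, and 1 of 4 neural and glial and 1 of 4 cartilage and bone markers lower. Against MyoD 2 epithelial and 1 macrophage marker were called higher, 1 endothelial marker in each direction, and 1 neural and 3 cartilage and bone markers lower. Of all genes tested, 19.5% were called higher and 18.1% lower in F/R/C against MEF, and 17.8% and 16.1% against MyoD. The part of these lists in the results was not tested.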

How the data were processed

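RNeasy RNA was turned into TruSeq Stranded mRNA libraries, per the labels' protocols. The submitters' processing notes name bcl2fastq 2.19, Trimmomatic 0.36, kallisto 0.44, edgeR 3.28 and GRCm38.p6; the annotation release, kallisto options and use of strand are not given in the sources used here. Per the file headers, the authors deposited kallisto's estimated count (expected count) and TPM for each of 121843 transcripts per library. Here, transcripts were joined to GENCODE M21 (GRCm38; 121104 matched, and the other 739, with 0.200% to 0.494% of counts, were left out), estimated counts were added up per gene and then rounded, and deposited TPM values were summed for levels of different genes.

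The gene test was edgeR 4.0.16 (R 4.3.3): filterByExpr (minimum count 10, minimum total 15; 15714 genes), TMM, 1 quasi-likelihood fit over 9 libraries, two-sided, Benjamini-Hochberg within each comparison. CPM uses TMM effective library sizes. SE is the absolute log2 fold change over the square root of F, which is approximate near 0 counts. The test was tried on simulated counts with known changes, drawn independently for each library with the same spread for every gene. Same-numbered libraries here deviated together, so that trial does not show how the test behaves on these data. An exact permutation test of 3 libraries against 3 cannot go below p = 0.1, so none is given. The members and lists were chosen with earlier results of these data known. All members were accounted for, those with a mean of at least 1 CPM in some group by library; per list and comparison the 3 called genes of smallest adjusted p in the main direction and 1 in the other could be named, beside Myod1.

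Same-numbered libraries deviated together from their group means in MyoD and MEF (correlations 0.632 to 0.729) and in F/R/C and MEF (0.101 to 0.151), which counts as pairing (limit 0.1); in F/R/C and MyoD they correlated at 0.0837, 0.119 and 0.164, which does not. The numbers come from the sample titles. Alternatives tried were DESeq2 1.42.0, its size factors in edgeR, library totals as the only scaling, counts scaled from TPM, other filters, fits of 2 groups, a replicate block and leaving out libraries.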

Additional observations from a re-analysis of the deposited data

How the results depend on the processing

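Fgf2, Fgf6, Fgf9, Fgf11, Fgf14, Fgf21, Fgfr1 and Fgfr4 were called in the same direction in both F/R/C comparisons under every alternative run. This also held for Fgfr2 against MEF, and for Etv4 and Spred3 against MyoD. The number of members called was 9 to 15 against MEF and 10 to 14 against MyoD when 1 library was left out, and 11 to 15 and 13 to 16 under the other alternatives. It was 0 in MyoD against MEF throughout. Of the single-gene values under alternatives, 1426 kept direction and side of the threshold, 37 passed it newly, 30 lost it and 69 changed sign, all of these uncalled. All genes called in MyoD against MEF went to 163 with DESeq2, 11 with no filter beyond 1 count, 13 with the replicate block and 199 without MEF replicate 3 and MyoD replicate 3, and ranged over 0 to 161 with 1 library left out; the cause was not tested. Member transcripts called in F/R/C against MyoD ranged over 7 to 13. Scaling by library totals only moved the median of all genes to -0.13 against MEF and -0.20 against MyoD. In F/R/C against MyoD, where the replicate numbers do not pair the libraries by the limit taken, the replicate block also called Fgf1 (2.55, adjusted p = 0.0434), Fgf23 (4.98, adjusted p = 0.0141) and Etv5 (-0.92, adjusted p = 0.0325); same-numbered pairs correlated best there. Beyond those given with the genes, the block changed no other member's call.

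Log2 values that changed sign were, with the replicate block, Spry3 0.039 (F/R/C against MEF), Dusp6 0.13 (F/R/C against MyoD) and, in MyoD against MEF, Fgf2 0.057, Fgf5 -0.16, Fgf14 -0.073 and Fgfr3 0.14. Without MEF replicate 3 and MyoD replicate 3 they were Fgfr3 -0.01 and Spry3 0.66 (F/R/C against MEF), Fgfrl1 -0.06, Spry3 0.022, Spry4 0.040 and Dusp6 0.19 (F/R/C against MyoD), and Fgf5 -2.51, Fgf7 0.12, Fgf23 0.0055, Fgf12 -0.28, Fgfr4 1.04, Spry2 0.35 and Spred1 -0.03 (MyoD against MEF). With library totals only they were Fgfrl1 -0.067 (F/R/C against MyoD) and, in MyoD against MEF, Fgf2 0.065 and Fgfr1 0.014. Fgf2 in MyoD against MEF was also 0.00088 with DESeq2, 0.0054 with its size factors in edgeR, 0.021 with no filter beyond 1 count and 0.0013 with an average CPM of at least 1. Leaving out 1 library, signs changed within these ranges. In F/R/C against MEF they were Fgfr3 -0.11 to 1.92, Fgfrl1 -0.45 to 0.014, Spry3 -0.80 to 0.56 and Spry4 -0.18 to 0.69. In F/R/C against MyoD they were Dusp6 -0.39 to 0.18, Fgfrl1 -0.069 to 0.33, Spry3 -1.11 to 0.016 and Spry4 -0.98 to 0.031. In MyoD against MEF they were Fgf1 -1.67 to 2.56, Fgf2 -0.22 to 0.25, Fgf5 -2.66 to 1.01, Fgf7 -1.06 to 0.33, Fgf10 -2.14 to 0.37, Fgf12 -1.48 to 1.53, Fgf14 -0.15 to 0.90, Fgf18 -1.64 to 0.67, Fgf23 -6.42 to 0.20, Fgfr1 -0.14 to 0.066, Fgfr3 -0.99 to 1.42, Fgfr4 -1.53 to 2.20, Spred1 -0.48 to 0.61, Spry1 -0.27 to 0.57 (0.84 without MEF replicate 3 and MyoD replicate 3 together), Spry2 -0.44 to 0.14 and Spry3 -0.44 to 1.37.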
